A study of Mus musculus with 12 samples.

Results

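Genes that were close to absent in one medium and measured in the other were followed through mouse embryonic stem cells grown with or without a pair of kinase inhibitors. They were Car4, Arap3, Stk33, Trpm1, Srarp, Gpld1, Sh2d4b and Ddr2, 8 of the 22416 genes in the deposited count table. They were found by symbol from a list of names that had been selected on the measured counts of these same libraries, by the difference between the media in WT or KI cells, with no numerical threshold. The size of that difference is therefore given below as a description and without a test. Car4 and Arap3 were high in LIF, and the other 6 were high in LIF/2i.

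The 4 groups, each of 3 libraries, were KI cells in LIF, WT cells in LIF, KI cells in LIF/2i and WT cells in LIF/2i. KI cells carried eIF2α A/A, a homozygous change of the translation initiation factor subunit at the serine that stress kinases phosphorylate, and WT cells were eIF2α+/+. The serum-free medium contained LIF, a cytokine that sustains mouse embryonic stem cells, in every group, and in the LIF/2i groups the MEK inhibitor PD0325901 and the GSK3 inhibitor CHIR99021 were present as well. Each medium was applied for 6 days before lysis, and the stated question was how the naive pluripotent state depends on phosphorylation of eIF2α. The number of cell lines or clones behind each genotype is not given in the sources used here, so the effect of the allele and other differences between the lines cannot be told apart.

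MEK activates the ERK kinases, which push embryonic stem cells out of the naive state, and GSK3 marks β-catenin for destruction, so its inhibition turns on Wnt target genes. Together with LIF, which acts through STAT3, the inhibitors hold the cells in a naive state. A change of medium therefore shifts several signalling routes at once. The 8 genes belong to no single known pathway. They encode a membrane enzyme, a collagen receptor, an ion channel, a regulator of small GTPases, a kinase, an adaptor, a secreted lipase and a nuclear protein.

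The libraries held 2307219 to 9713857 counts, lowest in KI LIF and highest in KI LIF/2i. A library with no count of a gene allows up to 3, which is 0.309 to 1.30 CPM (counts scaled to the library total) over these depths. Replicates 1 and 3 of WT LIF differed by less than sampling noise and entered as 1 averaged sample, so n = 2 in that group. No label ties the replicates to separate cultures, so the p-values here reflect only the spread among the sequenced samples, which may be technical. All 10 embryonic stem cell markers were detected in every library, with summed levels of 3467 to 5109 CPM. The summed level of 14 primitive endoderm markers was 356 to 390 CPM in KI LIF, 643 to 870 in WT LIF, 293 to 312 in KI LIF/2i and 278 to 514 in WT LIF/2i. Sparc, the highest of them in every group, averaged 230.2, 264.5, 233.4 and 244.2 CPM in the same order. Gata4 averaged 4.1, 5.8, 1.6 and 4.0 CPM, and Gata6 2.8, 7.1, 1.4 and 4.0 CPM. Levels below are CPM on the effective library sizes of edgeR (TMM scaling). In bulk RNA, fewer cells that express a gene and less RNA per cell cannot be told apart.

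**Figure D1:**
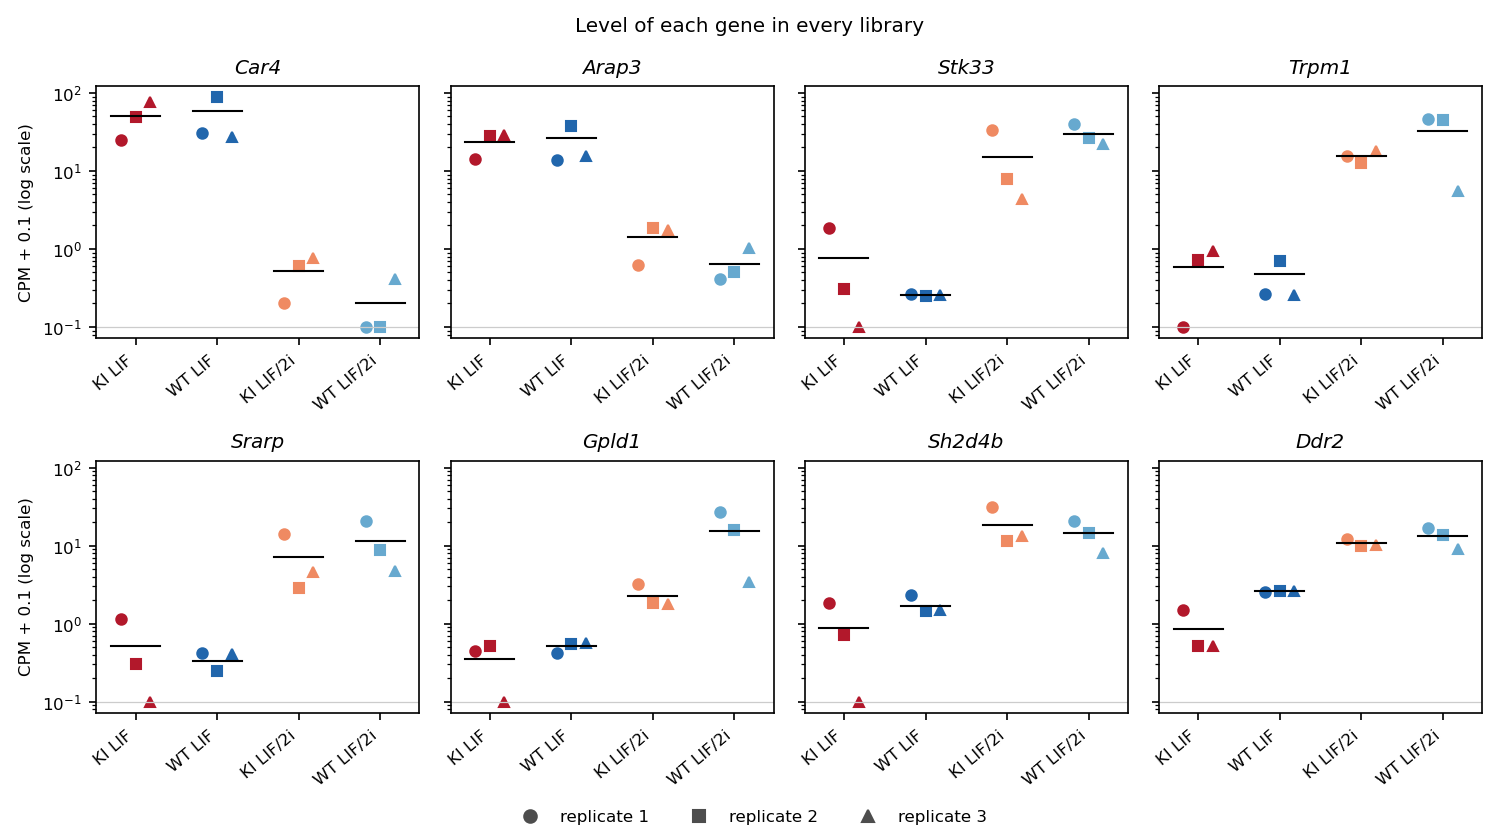
CPM plus 0.1 on a log axis of each gene in every library, with replicates as symbols and the group mean as a bar (the WT LIF mean counts replicates 1 and 3 as 1 sample). Car4 and Arap3 sit high in both LIF groups, and the other 6 genes sit high in both LIF/2i groups. The grey line marks 0 CPM.

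Car4 encodes carbonic anhydrase 4, an enzyme that interconverts carbon dioxide and bicarbonate. A lipid (GPI) anchor tethers it to the outer face of the cell membrane. In LIF Car4 was a well measured gene, and with the inhibitors it was almost unread. The 3 libraries held 71, 236 and 181 counts in KI LIF and 187, 582 and 175 in WT LIF, against 1, 4 and 4 in KI LIF/2i and 0, 0 and 1 in WT LIF/2i. Levels were 25.0, 48.8 and 76.7 CPM in KI LIF and 30.2, 87.5 and 27.2 CPM in WT LIF. Replicate 2 was the high library in WT LIF, replicate 3 in KI LIF, and no library of one medium reached the range of the other. Pooled over libraries, LIF exceeded LIF/2i 134-fold in KI cells (95% exact interval 69.9 to 295) and 887-fold in WT cells (159 to 35080). These intervals cover counting error only, and the WT ratio rests on 1 count in LIF/2i. Per kilobase of coding sequence, Car4 was the most abundant of the 8 genes, at 54.8 ± 28.3 CPM in KI LIF (SD, n = 3) and 63.5 ± 45.4 in WT LIF (SD, n = 2), above 82.5% and 85.4% of the 17679 genes with a coding length and a count. In LIF/2i it was above 25.5% of them in KI cells and 16.0% in WT cells.

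Car4 lies on the plus strand of chromosome 11 at 84957786 to 84966044 (GRCm38), and its counted transcript has 8 exons and 915 coding bases. The 250 bases before its RefSeq start are shown because they are the stretch in front of the gene with the widest contrast between media (RefSeq, GRCm38.p6, chr11:84957504-84957753, plus strand), with the match to the ETS motif CCGGAAG, which lies on the opposite strand, in capitals.
Car4: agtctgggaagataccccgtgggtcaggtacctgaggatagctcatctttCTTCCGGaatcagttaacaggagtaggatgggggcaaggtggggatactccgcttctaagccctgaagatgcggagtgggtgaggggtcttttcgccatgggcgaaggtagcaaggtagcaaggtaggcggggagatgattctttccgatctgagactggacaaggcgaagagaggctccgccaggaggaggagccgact
ETS factors are among the transcription factors that ERK phosphorylates. The motif was found on either strand in 6.9% of 32851 mouse promoters of the same length.

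Arap3 encodes a GTPase-activating protein for the small GTPases ARF6 and RhoA that is controlled by the lipid PIP3. It followed Car4, but its low side was above the floor in KI cells. Counts were 40, 134 and 69 in KI LIF and 85, 249 and 99 in WT LIF, against 5, 14 and 10 in KI LIF/2i and 2, 3 and 3 in WT LIF/2i. Levels were 14.1, 27.7 and 29.2 CPM in KI LIF, 13.7, 37.4 and 15.4 in WT LIF, 0.520, 1.75 and 1.66 in KI LIF/2i, and 0.318, 0.400 and 0.919 in WT LIF/2i. The media did not overlap in either genotype, whereas the genotypes overlapped in each medium. The pooled ratio of LIF to LIF/2i was 20.7 in KI cells (14.0 to 31.5) and 50.9 in WT cells (25.6 to 119). Arap3 is on the minus strand of chromosome 18 at 37972628 to 37998969, with 33 exons. Over the 11 samples its log2(CPM + 1) levels had a Pearson r of 0.995 with those of Car4, each being the closest to the other among tested genes with an established symbol, and Speg was next for both (r = 0.985 with Car4 and 0.992 with Arap3). The samples form a cluster for each medium, and these values describe likeness only.

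Among the 6 genes high in LIF/2i, Ddr2 and Trpm1 encode proteins of the cell membrane. Ddr2 is a receptor tyrosine kinase that is activated by fibrillar collagen. KI libraries held 4, 2 and 1 counts in LIF and 117, 79 and 61 in LIF/2i. It was the gene with the narrowest contrast of the 8 in WT cells, since WT LIF libraries still held 15, 17 and 16 counts, against 106, 102 and 29 in WT LIF/2i. Levels were 1.41, 0.414 and 0.424 CPM in KI LIF, 2.42, 2.55 and 2.49 in WT LIF, 12.2, 9.85 and 10.1 in KI LIF/2i, and 16.9, 13.6 and 8.88 in WT LIF/2i. The media were apart in both genotypes, and in LIF every KI library was below every WT library. Such groups without overlap between genotypes in LIF, in either direction, were found for 31.6% of all genes tested, with WT LIF counted as 2 samples. LIF/2i exceeded LIF 14.9-fold in KI cells (7.12 to 37.4) and 5.25-fold in WT cells (3.84 to 7.32). Ddr2 marks mesenchymal cells in tissues, and the summed level of 12 fibroblast markers was lower in LIF as well, at 1983 to 2496 CPM in KI LIF, 1964 to 2005 in WT LIF, 3734 to 4570 in KI LIF/2i and 4511 to 5665 in WT LIF/2i. Most of that sum was Fn1 (fibronectin), with group means of 1954, 1718, 4008 and 4865 CPM in the same order. Other markers of the list went the other way: Acta2 (smooth muscle actin) averaged 51.6, 59.4, 6.10 and 2.13 CPM in that order, and rose in LIF by 3.10 ± 0.63 in KI cells and 4.76 ± 0.74 in WT cells (log2, SE, edgeR adjusted p = 0.0107 and 0.00240). Col6a1 averaged 3.32, 4.69, 0.637 and 0 CPM and was called higher in LIF in WT cells (adjusted p = 0.0208), but not without WT LIF replicate 2 or WT LIF/2i replicate 1 or 2. Lum averaged 0 CPM in 3 of the groups and 0.0389 CPM in WT LIF, and the highest group means of Dcn, Prrx1 and Twist2 were 0.276, 0.150 and 0.207 CPM. The part of fibroblast-like cells in the Ddr2 difference was not tested.

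Trpm1 encodes the founding member of the TRPM cation channels, which passes the light response in ON bipolar cells of the retina and is a target of the transcription factor MITF in pigment cells. Libraries in LIF had 0, 3 and 2 counts in KI cells and 1, 4 and 1 in WT cells, and those in LIF/2i had 150, 100 and 108 in KI cells and 292, 341 and 18 in WT cells. The LIF/2i levels were 15.6, 12.5 and 18.0 CPM in KI cells and 46.5, 45.4 and 5.51 CPM in WT cells. WT LIF/2i replicate 3 was thus below every KI library, while the other 2 WT libraries were above them. The pooled ratio of LIF/2i to LIF was 29.0 in KI cells (12.3 to 89.9) and 115 in WT cells (52.8 to 316). The gene spans chromosome 7 from 64153835 to 64269775 on the plus strand. It has 2 RefSeq promoters, at chr7:64153585-64153834 and chr7:64185209-64185458. Which of them serves the counted transcript was not tested. The second held the TCF/LEF motif CTTTGA on the opposite strand and no MITF M-box. The first is shown because it holds matches to both the M-box TCATGTG and, on the opposite strand, the TCF/LEF motif, in capitals in that order from the 5′ end.
Trpm1: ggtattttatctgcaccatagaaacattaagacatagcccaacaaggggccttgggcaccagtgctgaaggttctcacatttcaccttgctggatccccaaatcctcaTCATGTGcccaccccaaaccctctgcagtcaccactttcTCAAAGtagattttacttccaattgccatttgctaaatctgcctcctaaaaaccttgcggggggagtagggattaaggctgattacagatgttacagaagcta
TCF/LEF factors bind DNA together with β-catenin, the protein that GSK3 inhibition protects. Of all promoters in the table, 3.3% held the M-box and 13.8% the TCF/LEF motif.

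Srarp encodes a small protein that in human breast cancer cells binds the androgen receptor, and it is the shortest of the 8 genes, on the minus strand of chromosome 4 at 141432672 to 141436105 with 489 coding bases. Libraries had 3, 1 and 0 counts in KI LIF and 2, 1 and 2 in WT LIF, against 136, 22 and 27 in KI LIF/2i and 131, 65 and 15 in WT LIF/2i. Its LIF/2i levels were 14.2, 2.74 and 4.49 CPM in KI cells and 20.8, 8.66 and 4.59 CPM in WT cells, so that replicate 1 was the high library in both genotypes. LIF/2i exceeded LIF 18.7-fold in KI cells (7.20 to 69.5) and 44.9-fold in WT cells (18.9 to 140). Per kilobase it was the most abundant of the 6 in LIF/2i, at 14.6 ± 12.6 CPM in KI cells and 23.2 ± 17.3 CPM in WT cells (SD, n = 3 each), although Stk33 in WT cells (19.9 ± 6.17, SD, n = 3) and Sh2d4b in KI cells (14.3 ± 8.33, SD, n = 3) lay within that spread. The 250 bases before its start (chr4:141436106-141436355, minus strand) held the same TCF/LEF motif, again on the opposite strand and in capitals, and are shown for comparison with Trpm1.
Srarp: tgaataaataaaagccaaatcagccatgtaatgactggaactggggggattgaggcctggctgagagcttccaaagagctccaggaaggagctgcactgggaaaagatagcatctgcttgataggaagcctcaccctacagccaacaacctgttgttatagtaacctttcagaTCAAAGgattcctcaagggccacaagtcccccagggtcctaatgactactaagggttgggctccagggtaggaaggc
No CG dinucleotide was present in this stretch, against a median of 6 over all promoters in the table. The Trpm1 stretch shown held 1 and the second Trpm1 promoter 4. The Ddr2 stretch held 1, that of Sh2d4b 3, that of Gpld1 5 and that of Car4 11.

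Stk33 and Sh2d4b act inside the cell. Stk33 is a serine/threonine kinase that mouse sperm need to build their flagella. It had 5, 1 and 0 counts in KI LIF and 1, 1 and 1 in WT LIF, against 318, 63 and 26 in KI LIF/2i and 248, 197 and 72 in WT LIF/2i. Levels in LIF/2i were 33.1, 7.85 and 4.32 CPM in KI cells and 39.5, 26.2 and 22.1 CPM in WT cells. KI LIF/2i replicate 1 lay among the WT libraries, and the other 2 KI libraries lay below all of them. Its ratio of LIF/2i to LIF was 27.5 in KI cells (12.5 to 75.3) and 183 in WT cells (62.4 to 892), the widest of the 6 genes in WT cells. It lies on the minus strand of chromosome 7 at 109279223 to 109439081.

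Sh2d4b carries an SH2 domain, the module that binds phosphorylated tyrosine, and little else is settled about its role. Counts were 5, 3 and 0 in KI LIF and 14, 9 and 9 in WT LIF, against 297, 91 and 80 in KI LIF/2i and 131, 110 and 26 in WT LIF/2i. Levels were 1.76, 0.620 and 0 CPM in KI LIF, 2.26, 1.35 and 1.40 in WT LIF, 30.9, 11.3 and 13.3 in KI LIF/2i, and 20.8, 14.7 and 7.96 in WT LIF/2i. Like Ddr2, it was still read in WT LIF, and its ratio of LIF/2i to LIF was 23.7 in KI cells (11.9 to 55.2) and 8.88 in WT cells (6.14 to 13.2). The gene is on the minus strand of chromosome 14 at 40813789 to 40893266.

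Gpld1 encodes the GPI-specific phospholipase D, a secreted enzyme that cuts proteins free from their GPI anchors and is made mainly by the liver. Counts were 1, 2 and 0 in KI LIF and 2, 3 and 3 in WT LIF, against 30, 14 and 10 in KI LIF/2i and 167, 120 and 11 in WT LIF/2i. In LIF/2i the levels were 3.12, 1.75 and 1.66 CPM in KI cells and 26.6, 16.0 and 3.37 CPM in WT cells. Every KI library was below every WT library, but KI replicate 1 and WT replicate 3 were close. The ratio of LIF/2i to LIF was 7.29 in KI cells (2.37 to 36.5), which rests on 3 counts in LIF, and 39.6 in WT cells (19.9 to 92.6). Gpld1 lies on the plus strand of chromosome 13 at 24943152 to 24992501 and overlaps Mrs2, a mitochondrial magnesium channel gene on the other strand. Whether reads were counted by strand is not given in the sources used here, so reads of the pair cannot be told apart where they overlap. Mrs2 averaged 28.5 ± 8.88, 33.1 ± 3.46, 27.3 ± 3.57 and 42.5 ± 0.368 CPM in KI LIF, WT LIF, KI LIF/2i and WT LIF/2i (SD, n = 3 except WT LIF with n = 2). The stretch before the Gpld1 start (chr13:24942902-24943151, plus strand) is shown because Gpld1 was called in the genotype test described below, and it held none of the 6 motifs searched, on either strand.
Gpld1: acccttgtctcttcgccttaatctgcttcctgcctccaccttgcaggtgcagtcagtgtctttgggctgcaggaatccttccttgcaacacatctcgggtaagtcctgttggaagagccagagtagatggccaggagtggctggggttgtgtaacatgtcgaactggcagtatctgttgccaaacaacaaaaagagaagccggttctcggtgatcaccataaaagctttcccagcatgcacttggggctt
The other 3 motifs searched were TTCNNNGAA (STAT), AAGGTCA (the ESRRB half-site) and CCACACCC (KLF), which were present in 7.0%, 4.1% and 3.2% of all promoters. Of the 5 genes high in LIF/2i with a promoter in the table, 2 (Trpm1 and Srarp) held the TCF/LEF motif, and the other 3 (Gpld1, Sh2d4b and Ddr2) held none of the motifs. The RefSeq start used for Ddr2, at 170088944, lies inside the gene, which begins at 170110762 on the minus strand. The bases before that outer end were not searched.

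**Figure D2:**
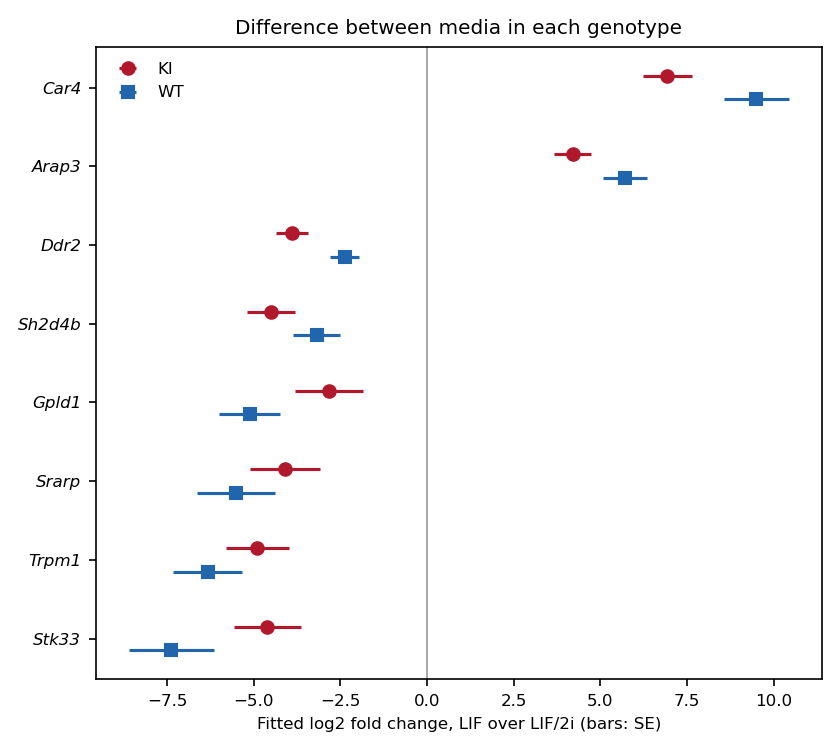
Fitted log2 fold change, LIF over LIF/2i, with its standard error, for each gene in KI and WT cells. Values are positive for Car4 and Arap3 and negative for the other 6 in both genotypes, and the sizes for a gene at the floor on one side vary with the prior count that the fit adds.

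In both genotypes, all 8 genes had groups that did not overlap between media, as did 27.1% of all genes tested in KI cells and 48.8% in WT cells, where LIF counts as 2 samples. Of the 13229 genes tested, 9.05% were called between LIF and LIF/2i in KI cells (4.05% higher and 5.0% lower in LIF) and 13.0% in WT cells (6.3% higher and 6.65% lower), by edgeR's quasi-likelihood test at a Benjamini-Hochberg adjusted p of 0.05. Nothing is read from the members' count, since the same contrast chose them. All 8 passed the filter on low counts, which the group in which each was high was enough to pass. Ratios were larger in WT than in KI cells for Car4, Arap3, Stk33, Trpm1, Srarp and Gpld1, and larger in KI than in WT cells for Sh2d4b and Ddr2. These differences between genotypes in the response to medium were not tested.

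A count screen was applied to all 22416 genes to place the members. It asked for under 3 counts in every library of one medium and at least 10 in every library of the other. In KI cells it found 1 gene on in LIF, 0.00446% of the table and not a member, and 22 on in LIF/2i (0.0981%), of which Gpld1 was 1. In WT cells it found 49 on in LIF (0.219%), among them Car4, and 10 on in LIF/2i (0.0446%), among them Stk33 and Srarp. Arap3, Trpm1, Sh2d4b and Ddr2 met it in neither genotype. Trpm1 was outside it by the 4 counts of WT LIF replicate 2 in WT cells and by the 3 counts of KI LIF replicate 2 in KI cells. Arap3 was outside it by the 3 counts of WT LIF/2i replicates 2 and 3 in WT cells. No member met it in both genotypes. On CPM (under 0.5 against at least 2) the screen found more genes on in LIF than in LIF/2i in KI cells, 17 against 4, with no member among them, and in WT cells 30 on in LIF and 15 on in LIF/2i, with 1 and 3 members. Counts in the screen depend on depth, and KI LIF libraries held 2307219 to 4609908 counts and WT LIF libraries 6092300 to 6376905.

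The 6 genes high in LIF/2i shared an order among libraries. They were chosen on these same libraries, and genes read in the same libraries are not independent observations, so the counts below are a description. WT LIF/2i replicate 3 was the lowest of its group for 6 of 6, against 55.7% of the 880 genes called lower in LIF in WT cells and 40.8% of all genes tested. It was also the shallowest WT library, with 3234713 counts. KI LIF/2i replicate 1, the deepest library, was the highest of its group for 5 of 6, the exception being Trpm1, against 42.8% of the 661 genes called lower in LIF in KI cells and 35.5% of all genes. The highest library of KI LIF/2i was 7.66 times the lowest for Stk33 and 1.24 times for Ddr2, and that of WT LIF/2i was 8.43 times the lowest for Trpm1 and 1.79 times for Stk33. KI LIF/2i replicate 1 also stood apart in other measures: its Y-linked transcripts summed to 42.1 CPM, against 1.87 and 1.50 CPM in replicates 2 and 3, and 8 neural markers to 37.6 CPM, against 121 and 112. The part of these in the order among libraries was not tested.

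**Figure D3:**
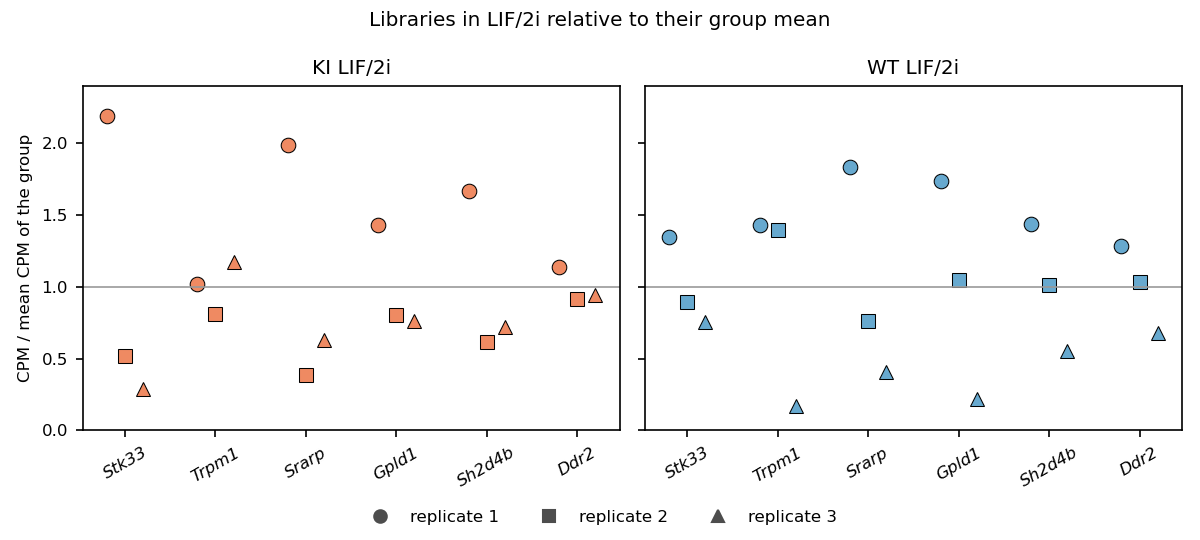
CPM of each LIF/2i library divided by the mean of its group, for the 6 genes high in LIF/2i. WT replicate 3 is the lowest point for every gene in the right panel, and KI replicate 1 is the highest for every gene but Trpm1 in the left panel.

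KI and WT cells were then compared within the medium in which each gene was high. A gene could be chosen on the values of 1 genotype, from these same libraries, so these tests are not independent of the choice. Of the 6 genes high in LIF/2i, 1 was called there, Gpld1, which was lower in KI cells by a log2 fold change of -2.79 ± 0.60 (SE, edgeR adjusted p = 0.0383). Of all genes tested, 2.21% were called in this comparison, 1.24% lower and 0.975% higher, and 22.7% had genotype groups that did not overlap, as Gpld1 did. The log2 fold change was -2.18 (adjusted p = 0.136) without WT LIF/2i replicate 1, and the call was also lost without KI LIF/2i replicate 2 (adjusted p = 0.107) or 3 (0.124), WT LIF/2i replicate 2 (0.0791), KI LIF replicate 2 (0.0569) or 3 (0.0546), or WT LIF replicate 2 (0.0598). The genes nearest to Gpld1 also averaged less in KI LIF/2i than in WT LIF/2i. Aldh5a1 averaged 19.71 against 34.35 CPM, Dcdc2a 2.17 against 11.18 CPM and the overlapping Mrs2 27.25 against 42.47 CPM. A shared cause was not tested. Summed Y-linked transcripts also differed between the genotypes. They were 36.6 and 42.1 CPM in the replicate 1 libraries of KI cells and 1.50 to 3.81 CPM in the other KI libraries. In WT cells they were 74.4 CPM (LIF) and 46.2 CPM (LIF/2i) in the replicate 2 libraries and 153 to 278 CPM in the others. The part of Y-linked transcripts in the result was not tested.

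The other 5 genes high in LIF/2i did not pass the genotype test there. Log2 fold changes of KI over WT were -0.93 ± 0.62 for Stk33, -1.09 ± 0.56 for Trpm1, -0.66 ± 0.64 for Srarp, 0.35 ± 0.48 for Sh2d4b and -0.29 ± 0.32 for Ddr2 (SE, edgeR adjusted p = 0.417, 0.294, 0.588, 0.706 and 0.637). Their groups overlapped. Without KI LIF/2i replicate 1, Stk33 was called at -2.26 (adjusted p = 0.0192), Srarp stood at -1.69 (0.112) and Sh2d4b at -0.26 (0.750). Without WT LIF/2i replicate 1, Srarp stood at 0.08 (0.966). Without WT LIF/2i replicate 3, Trpm1 stood at -1.57 (0.0513).

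In LIF, Car4 and Arap3, both measured well there, differed between KI and WT cells by -0.23 ± 0.51 and -0.14 ± 0.48 (log2, SE, edgeR adjusted p = 0.921 and 0.952). Of all genes tested, 0.144% were called in this comparison, 0.0151% higher and 0.129% lower. The sign of both genes turned without WT LIF replicate 2, to 0.80 and 0.70. No genotype test is given in the medium in which a gene was chosen for being near absent.

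Each gene was set beside its relatives, from lists chosen with earlier results of these data known, for LIF against LIF/2i. Over all genes tested the median log2 fold change was -0.03 in KI cells and 0.01 in WT cells, and 23.7% and 27.5% of them had an unadjusted p under 0.05. Of 9 tested carbonic anhydrases other than Car4, 0 were called in either genotype by edgeR or DESeq2, and 3 had an unadjusted p under 0.05 in each genotype (edgeR), with medians of 0.77 in KI cells and 0.07 in WT cells. With the replicate block, Car14 was called higher in both genotypes (adjusted p = 0.0305 in KI cells and 0.0320 in WT cells), and Car6 in WT cells (0.0365). Without KI LIF/2i replicate 2, 1 was called higher in KI cells, and without KI LIF/2i replicate 1, 1 lower in WT cells. Car2, the abundant cytosolic form, averaged 29.8 ± 23.3 CPM in KI LIF, 45.4 ± 15.9 in WT LIF, 15.1 ± 8.07 in KI LIF/2i and 49.0 ± 18.4 in WT LIF/2i (SD, n = 3 except WT LIF with n = 2). Of 20 other ARF GTPase-activating proteins, 2 were called higher and 2 lower in KI cells, and 1 higher and 4 lower in WT cells, with medians of -0.09 and -0.29. Acap1 was higher in LIF, by 1.47 ± 0.31 in KI cells and 2.03 ± 0.36 in WT cells (log2, SE, edgeR adjusted p = 0.0126 and 0.00418), and Adap1 was lower, by -1.09 ± 0.19 and -1.29 ± 0.21 (0.00486 and 0.00315). Arap1 and Arap2, the closest relatives of Arap3, were not called: Arap1 stood at -0.20 ± 0.22 in KI cells and -0.46 ± 0.25 in WT cells, and Arap2 at 0.30 ± 0.58 and -0.26 ± 0.62 (log2, SE, edgeR adjusted p of at least 0.269).

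Agap2 was called in KI cells at 2.89 ± 0.60 (edgeR adjusted p = 0.0123) and Git2 in WT cells at -0.78 ± 0.15 (0.00569). The KI calls of Acap1 and Agap2 were lost without KI LIF replicate 2 (adjusted p = 0.0511 and 0.0576) or 3 (0.0637 and 0.0569), and the WT calls of Adap1 and Git2 without WT LIF replicate 2 (0.0562 and 0.0717). Without that library 0 of the list were called lower in WT cells, and without WT LIF/2i replicate 1, 2 were.

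Of the 3 TRPM channels tested beside Trpm1, Trpm4 was called lower in LIF in both genotypes, at -1.04 ± 0.20 in KI cells and -0.82 ± 0.22 in WT cells (log2, SE, edgeR adjusted p = 0.00697 and 0.0275). In WT cells the call ended without replicate 2 of WT LIF (adjusted p = 0.106) or replicate 1 (0.0706) or 2 (0.0777) of WT LIF/2i. Trpm7, the abundant member, averaged 354 ± 18.9 CPM in KI LIF, 373 ± 43.7 in WT LIF, 474 ± 102 in KI LIF/2i and 450 ± 84.9 in WT LIF/2i (SD, n = 3 except WT LIF with n = 2), and was not called. Among 10 melanocyte genes 5 were tested, of which 2 were called lower in LIF in KI cells and 3 in WT cells, with medians of -1.44 and -0.97. Mitf, the master transcription factor of pigment cells, fell by 2.44 ± 0.49 on the log2 scale in KI cells and by 2.20 ± 0.54 in WT cells (SE, edgeR adjusted p = 0.00957 and 0.0194). Kit, a receptor also of germ and blood cells, fell by 0.92 ± 0.17 and 0.97 ± 0.20 (0.00677 and 0.00786). Gpr143, a melanosome receptor, fell by 3.37 ± 0.62 in WT cells (0.00517) and stood at -1.65 ± 0.61 in KI cells (0.121). Tyr, Dct and Slc45a2 of the same list had 0 counts in all 12 libraries. Pmel and Mlana were measured and not called in either genotype. In KI LIF, WT LIF, KI LIF/2i and WT LIF/2i, Pmel averaged 14.5, 12.1, 24.7 and 21.8 CPM. Mlana averaged 0.959, 2.11, 2.44 and 2.04 CPM in that order. Of the KI calls, that of Mitf was lost without KI LIF replicate 2 (adjusted p = 0.0555) or 3 (0.0537). Of the WT calls, those of Mitf, Kit and Gpr143 were lost without WT LIF replicate 2 (adjusted p = 0.130, 0.102 and 0.0770), and Mitf also without WT LIF/2i replicate 1 (0.0747).

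Called genes of the collagen list, read beside Ddr2, were all higher in LIF. Of 13 tested collagen receptors, fibrillar collagens and collagen-cutting enzymes, 6 were called higher in LIF in KI cells and 7 in WT cells and 0 lower by edgeR or DESeq2, with medians of 1.44 and 1.49. An unadjusted p under 0.05 was reached by 8 of them in KI cells and 9 in WT cells. The called count was 3 in KI cells without KI LIF replicate 2 or 3 or KI LIF/2i replicate 2, and 3 in WT cells without WT LIF replicate 2 or WT LIF/2i replicate 1. Uncalled members included Mmp2 at -0.20 in WT cells and Itga10 at 0.00 in KI cells (log2). Ddr1, the sister receptor of Ddr2, averaged 88.3 ± 14.7 CPM in KI LIF, 76.8 ± 17.0 in WT LIF, 26.5 ± 3.19 in KI LIF/2i and 32.0 ± 13.0 in WT LIF/2i (SD, n = 3 except WT LIF with n = 2). It rose in LIF by 1.72 ± 0.26 in KI cells and 1.30 ± 0.28 in WT cells (log2, SE, edgeR adjusted p = 0.00201 and 0.00988), while Ddr2 was low in LIF. For Ddr1 the WT call ended without replicate 2 of WT LIF (adjusted p = 0.122) or replicate 1 of WT LIF/2i (0.0530). Col1a1 and Col1a2, the chains of type I collagen, which Ddr2 binds, rose by 2.82 ± 0.69 and 5.26 ± 1.09 in KI cells (log2, SE, edgeR adjusted p = 0.0253 and 0.0118) and by 5.55 ± 0.86 and 8.16 ± 1.33 in WT cells (0.00236 and 0.00287). The WT values were 2.74 and 4.32 without WT LIF replicate 2. In KI cells the Col1a1 call was lost without KI LIF replicate 2 (adjusted p = 0.0848) or 3 (0.0735) or any 1 of the KI LIF/2i libraries (0.0590 to 0.0674), and the Col1a2 value was 4.57 without KI LIF/2i replicate 1 and 6.21 without KI LIF/2i replicate 3. Itga1, a collagen-binding integrin subunit, rose by 1.76 ± 0.29 in KI cells and 1.59 ± 0.30 in WT cells (0.00341 and 0.00553), in every alternative run.

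Of 28 tested genes that build or process GPI anchors, read beside Gpld1 and Car4, 2 were called lower in LIF in KI cells, and 2 lower and 1 higher in WT cells, with medians of -0.21 and -0.12. Piga, which starts anchor synthesis, was lower in both, at -1.02 ± 0.22 and -1.12 ± 0.24 (log2, SE, edgeR adjusted p = 0.0133 and 0.0111), but not without KI LIF replicate 2 (0.0651) or 3 (0.0542) in KI cells or WT LIF replicate 2 (0.117) in WT cells. Pgap1, which remodels the finished anchor, was at -1.47 ± 0.31 in WT cells (0.00931, and 0.112 without WT LIF replicate 2). Pigyl in KI cells (-1.35 ± 0.36, edgeR adjusted p = 0.0383) lost its call without 7 of the 12 libraries in turn, and Pigo in WT cells (0.55 ± 0.16, edgeR adjusted p = 0.0444) without 7 of them. Of 8 tested steroid receptors and relatives, set beside Srarp, 1 was called lower in LIF in KI cells, the orphan receptor Esrrb (-0.67 ± 0.15, edgeR adjusted p = 0.0175), and 0 in WT cells, where DESeq2 also called 0 and 2 had an unadjusted p under 0.05. The Esrrb call was lost without KI LIF replicate 2 (0.0823) or 3 (0.0914) or KI LIF/2i replicate 1 (0.0561). Of 6 tested SH2D and SH2B adaptors, set beside Sh2d4b, edgeR called 0 in either genotype, DESeq2 called 1 in KI cells and 0 in WT cells, and 3 and 1 had an unadjusted p under 0.05. With the replicate block, Sh2d3c was called higher in KI cells (adjusted p = 0.0377) and Sh2d4a lower in WT cells (0.0362). Without KI LIF/2i replicate 2, 2 were called higher in KI cells and 1 lower in WT cells, and 1 was lower in WT cells without KI LIF replicate 1, KI LIF/2i replicate 1, WT LIF replicate 3 or WT LIF/2i replicate 3. Sh2d4a, the sister gene, averaged 0.420, 0.818, 1.60 and 4.18 CPM in KI LIF, WT LIF, KI LIF/2i and WT LIF/2i.

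**Figure D4:**
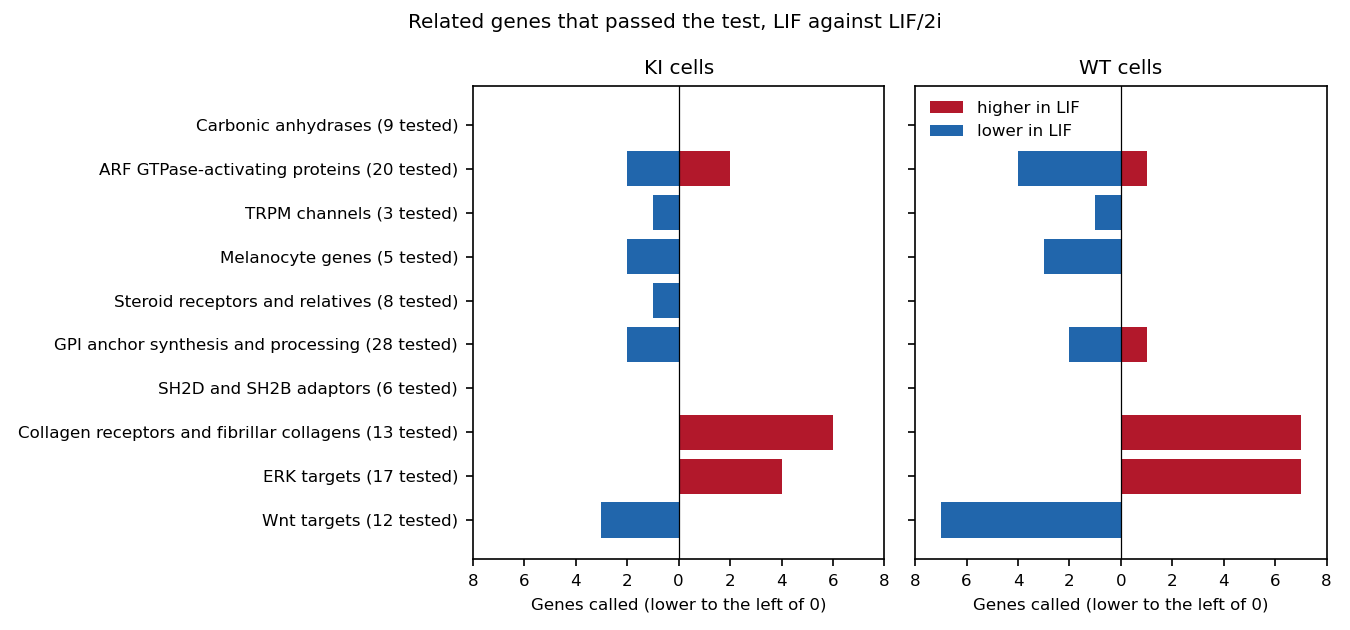
Number of genes of each list called by edgeR as higher in LIF (red, right of 0) or lower in LIF (blue, left of 0) in KI and WT cells. In the collagen list 6 genes in KI cells and 7 in WT cells were called, each higher in LIF.

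Targets of the 2 inhibited routes were counted in the same contrast. Of 17 ERK targets, 4 were called higher in LIF in KI cells and 7 in WT cells and 0 lower by either tool, with 9 and 12 at an unadjusted p under 0.05 (edgeR) and medians of 0.93 and 1.56. Of 12 tested Wnt targets, 3 were called lower in LIF in KI cells and 7 in WT cells and 0 higher by either tool, with 7 and 8 at an unadjusted p under 0.05 and medians of -0.47 and -1.48. The Wnt count was 0 in KI cells without KI LIF replicate 2 or 3, 1 without KI LIF/2i replicate 2, and 5 without WT LIF/2i replicate 3 or with the replicate block, and it was 1 in WT cells without WT LIF replicate 2. Among markers of other cell types, 1 of 12 primitive endoderm, 2 of 8 trophectoderm and 2 of 6 neural genes were called higher in LIF in KI cells, and 2, 3 and 2 in WT cells. Over all genes tested, 4.05% were called higher in LIF in KI cells and 6.3% in WT cells. In KI cells 1 of the 8 trophectoderm genes was called lower. The ERK count in WT cells was 11 with 12 libraries counted separately, with or without the replicate block. KI marker calls were fewer without KI LIF replicate 2 or 3, which left 0 primitive endoderm, 1 trophectoderm (Hand1) and 0 neural genes higher and 0 trophectoderm genes lower. Without any 1 of the KI LIF/2i libraries 0 primitive endoderm genes were called in KI cells, and without WT LIF/2i replicate 3, 3 were. The neural count in KI cells was 1 without KI LIF replicate 1 or KI LIF/2i replicate 1 or 2. The trophectoderm call of Krt8 in KI cells was also lost with the replicate block (edgeR adjusted p = 0.0549), no filter (0.0712) or 12 libraries counted separately (0.0529). It was lost as well without KI LIF replicate 1, KI LIF/2i replicate 1 or 2, WT LIF replicate 3 or any WT LIF/2i library. In WT cells 0 neural genes were called without WT LIF replicate 2 or WT LIF/2i replicate 2, and 1 without KI LIF replicate 2 or 3, KI LIF/2i replicate 2 or WT LIF/2i replicate 1 or 3. The primitive endoderm count in WT cells was 6 without WT LIF/2i replicate 3 and 4 without KI LIF/2i replicate 1. The 1 mesendoderm gene tested was called lower in both genotypes, though in KI cells not without any 1 of the KI LIF libraries or KI LIF/2i replicate 2. Of 7 tested fibroblast markers 1 was called higher and 1 lower in KI cells, and 2 higher and 1 lower in WT cells. Without KI LIF replicate 1 or KI LIF/2i replicate 3, 2 were higher in KI cells, and 3 with the replicate block. In WT cells 1 was higher without WT LIF replicate 2 or WT LIF/2i replicate 1 or 2. Of the 10 embryonic stem cell markers 1 was called higher and 3 lower in each genotype. Without KI LIF replicate 2 or 3, 1 was lower in KI cells, and without WT LIF replicate 2, 0 were lower in WT cells.

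The nearest gene on each side of every member was read to see whether a stretch of chromosome moved with it. Of 16 such neighbours 14 were tested, of which 1 was called higher and 1 lower in LIF in KI cells and 1 higher and 2 lower in WT cells. Over all genes tested, 9.05% were called in KI cells and 13.0% in WT cells. Pcdh1, a protocadherin gene 187 kb to the right of Arap3, was higher in LIF like Arap3. It averaged 60.7 ± 34.7 CPM in KI LIF, 24.9 ± 10.5 in WT LIF, 5.42 ± 4.31 in KI LIF/2i and 1.47 ± 0.475 in WT LIF/2i (SD, n = 3 except WT LIF with n = 2). Its log2 fold change was 3.50 ± 0.64 in KI cells and 4.00 ± 0.78 in WT cells (SE, edgeR adjusted p = 0.00640 and 0.00673), the KI value was 4.33 without KI LIF/2i replicate 2, and the WT call was lost without WT LIF replicate 2 (0.0627). Fchsd1, 2.85 kb to the left of Arap3, was not called, at 0.88 ± 0.29 in KI cells and -0.13 ± 0.32 in WT cells (0.0779 and 0.847).

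Tspan14, a tetraspanin gene 13.2 kb from Sh2d4b, was lower in LIF like Sh2d4b. Its level was 23.3 ± 3.27 CPM in KI LIF, 29.1 ± 5.20 in WT LIF, 60.4 ± 7.53 in KI LIF/2i and 63.0 ± 9.58 in WT LIF/2i (SD, n = 3 except WT LIF with n = 2). It fell by 1.38 ± 0.19 in KI cells and 1.11 ± 0.21 in WT cells (log2, SE, edgeR adjusted p = 0.00145 and 0.00621). Aldh5a1, an enzyme of GABA breakdown 5.49 kb from Gpld1, stood at -0.42 ± 0.20 in KI cells and fell by 1.10 ± 0.22 in WT cells (log2, SE, edgeR adjusted p = 0.235 and 0.00800), where leaving out WT LIF replicate 2 ended the call (0.0993). Both neighbours of Car4, Znhit3 and Usp32, stood between -0.17 and 0.21 on the log2 scale and were not called. Dcdc2a, 63.5 kb to the right of Gpld1, averaged 1.52 ± 2.64 CPM in KI LIF, 1.59 ± 0.766 in WT LIF, 2.17 ± 1.90 in KI LIF/2i and 11.2 ± 3.06 in WT LIF/2i (SD, n = 3 except WT LIF with n = 2). It was highest in WT LIF/2i, like Gpld1, and stood at -0.66 ± 1.06 in KI cells and -2.77 ± 1.05 in WT cells (log2, SE, edgeR adjusted p = 0.775 and 0.107). Lmo1, 104 kb from Stk33, stood at -0.81 ± 0.83 in KI cells and -2.28 ± 0.76 in WT cells (log2, SE, edgeR adjusted p = 0.621 and 0.0695). The remaining tested neighbours, Trim66 (Stk33), Klf13 and Mtmr10 (Trpm1), Zbtb17 (Srarp), and Hsd17b7 and Uap1 (Ddr2), stood between -1.09 and 0.60 and were not called (edgeR adjusted p of at least 0.312). Of these, Klf13 lies 215 kb from Trpm1. Hspb7, 7.36 kb from Srarp, and Nrg3, 1341 kb from Sh2d4b, were under the count filter. Mrs2, which overlaps Gpld1, stood at 0.05 ± 0.21 in KI cells and -0.35 ± 0.23 in WT cells (log2, SE, edgeR adjusted p = 0.930 and 0.371).

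For each member, the 2 genes with the most similar levels over the 11 samples were taken by Pearson r of log2(CPM + 1), as a description of samples that share a medium. Sh2d4b was closest to Tbx3 (r = 0.994), a transcription factor of the naive network that averaged 178 ± 27.3 CPM in KI LIF, 212 ± 9.96 in WT LIF, 539 ± 100.0 in KI LIF/2i and 512 ± 117 in WT LIF/2i (SD, n = 3 except WT LIF with n = 2), and then to Fig4 (0.982). Stk33 was closest to Lrrc2 (0.989) and Hoxc13 (0.982), and Ddr2 to Spcs3 (0.985) and Mtm1 (0.982). Mfn1, a mitochondrial fusion protein, was among the closest to Srarp (0.979). Gpld1 was closest to Ugcg (0.977), the glucosylceramide synthase, and Tex2 (0.965), and Trpm1 to Bdh1 and Tpd52l1 (0.971 each). From 103 genes (Gpld1) to 266 genes (Arap3) had an r above 0.9 with a member, so none of these pairs stands alone.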

How the data were processed

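RNA-seq was deposited for 12 libraries of mouse embryonic stem cells in 4 groups. Per the labels' protocols, RNA came from the supernatant of the spun lysate, was depleted of ribosomal RNA, fragmented, and built into libraries by the ribosome profiling protocol. The values are raw read counts per gene in 1 table deposited by the authors, with no normalization. Per the file headers, each gene is represented by 1 transcript and its coding sequence. The submitters' processing notes list UMI-tools 1.0.1, cutadapt 3.4 and Bowtie 1.3.0, with no roles. The sources used here do not give the build, the annotation, or how strand, molecular identifiers and multiply mapped reads were handled. Transcript identifiers were matched to GENCODE M21 (GRCm38), where 22155 of 22416 were found and 21766 had the same symbol, and loci are from that annotation. 4483 genes had no count.

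The 8 members and all lists were chosen with earlier results of these data known. WT LIF replicates 1 and 3 (chi-square per degree of freedom 0.858 over genes with at least 20 counts) were averaged, which left 11 samples. Genes were kept with filterByExpr at a minimum count of 10 (13229 genes), normalized with TMM factors of 0.946 to 1.04 and tested in edgeR 4.0.16 (R 4.3.3) by the robust quasi-likelihood F test, two-sided, with 1 mean per group over all groups. Benjamini-Hochberg adjusted p-values were read at 0.05, and the common dispersion corresponded to a biological coefficient of variation of 0.234. SEs were taken from the F statistic. The pipeline was tested on simulated data. Pooled ratios sum all 3 libraries of a group and have 95% exact conditional intervals. PCR reads are not independent molecules, so intervals and floors cover counting error only.

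Lists covered carbonic anhydrases, ARF GTPase-activating proteins, TRPM channels, melanocyte genes, steroid receptors, GPI anchor genes, SH2D and SH2B adaptors, collagen receptors and collagens, ERK and Wnt targets and markers of 6 cell types. By rule, up to 4 called genes of a family list, smallest adjusted p first, both neighbours of each member and the 2 most correlated genes were named, and genes of the target and marker lists are given as counts. Acta2, Col6a1, Krt8, Hand1, Car14, Car6, Sh2d3c, Mmp2, Itga10, Car2, Trpm7, Arap1, Arap2, Sh2d4a, Fn1, Pmel, Mlana, Sparc, Gata4, Gata6 and genes at or near 0 were named after their values were seen. A gene among the most correlated is not reported here. Promoters are the 250 bases before each RefSeq start (GRCm38.p6), given for 6 of the 8 genes in the table used.

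Groups share replicate numbers, which the labels tie to nothing. Deviations from the group means correlated between same-numbered KI samples across media (0.524, 0.405 and 0.245 for replicates 1, 2 and 3), which pairs the KI samples there by the data and not by the labels. The other comparisons had at least 1 pair under 0.1. Alternatives were DESeq2 1.42.0, DESeq2's size factors, no filter, 12 libraries counted separately, the replicate number as a block, leaving out each library and, chosen after seeing the data, leaving out both agreeing libraries.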

Additional observations from a re-analysis of the deposited data

How the results depend on the processing

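The sign of each member's fitted difference between media held under all alternatives, which the choice of genes fixed. Its size (log2) moved most for Stk33 in KI cells (-4.61, against -6.59 without KI LIF replicate 1 and -3.30 without KI LIF/2i replicate 1), Srarp in KI cells (-4.10, against -5.52 and -3.09 without the same libraries) and in WT cells (-5.50, against -4.74 without WT LIF/2i replicate 1), Car4 in WT cells (9.50, against 8.46 without WT LIF replicate 2 and 11.46 without WT LIF/2i replicate 3), Arap3 in WT cells (5.71, against 4.86 without WT LIF replicate 2), and in KI cells Ddr2 (-3.88, against -4.62 without KI LIF replicate 1) and Gpld1 (-2.83, against -3.41 without KI LIF replicate 2). Genes called (higher plus lower) moved by over 1.5 times under many. For KI against WT in LIF/2i the main count was 293, against 917 with DESeq2, 522 with 12 libraries counted separately, 566 with the replicate block, 160 without both agreeing libraries, and 64 to 996 leaving out each library. For KI against WT in LIF it was 19, against 211 with DESeq2, 31 with no filter, 142 with 12 libraries, 174 with the block, 2 without both agreeing libraries, and 1 to 53 leaving out each library. For LIF against LIF/2i it was 1197 in KI cells, and 498 to 1337 leaving out each library. In WT cells it was 1714, against 2737 with 12 libraries, 2856 with the block, 766 without both agreeing libraries, and 390 to 2167 leaving out each library. The cause was not tested, but leaving out a library leaves fewer samples. The block, in which the KI numbers pair, ended the KI call of Krt8 (edgeR adjusted p = 0.0549). It added calls between media of Car14, Sh2d3c and Col6a1 in KI cells. In WT cells it added those of Car14, Car6 (0.0365), Sh2d4a (0.0362), Esrrb (0.0483), Lmo1 (0.0324) and Dcdc2a (0.0494). The block changed no other call that the text gives for a named gene.

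The on-off screen at under 6 against at least 20 counts found 2 genes in KI cells and 50 in WT cells on in LIF, and 28 and 4 on in LIF/2i. On CPM (under 0.5 against at least 2) it found 17 and 30 on in LIF, and 4 and 15 on in LIF/2i. Leaving out each library gave 1 to 3 and 60 to 77 on in LIF, and 25 to 49 and 11 to 36 on in LIF/2i.

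Genotype differences that turned sign, none of them called, were those of Car4 and Arap3 in LIF with 12 libraries (0.0483 and 0.0957), with the block (0.0707 and 0.1293), without KI LIF replicate 1 (0.097 and 0.1253) and without WT LIF replicate 2 (0.8005 and 0.6995), and in LIF/2i Srarp without WT LIF/2i replicate 1 (0.0814) and Sh2d4b without KI LIF/2i replicate 1 (-0.2647). Leaving out each library gave -0.65 to 0.80 for Car4 and -0.31 to 0.70 for Arap3 in LIF, and -1.69 to 0.08 for Srarp and -0.26 to 0.68 for Sh2d4b in LIF/2i. Gpld1 in LIF/2i was -3.24 to -2.18 over all alternatives, with adjusted p = 0.0016 by DESeq2 and 0.136 without WT LIF/2i replicate 1. Without both agreeing libraries the calls of Gpld1 (edgeR adjusted p = 0.0599) and, in WT cells, Trpm4 (0.203), Mitf (0.130), Piga (0.0616), Pigo (0.324) and Tspan14 (0.0749) were lost. With no filter those of Pigo in WT cells (0.0628) and of Col1a1 (0.0901), Col1a2 (0.0619) and Krt8 (0.0712) in KI cells were lost. Counting 12 libraries separately also ended the KI call of Krt8 (0.0529). Low-side counts of 0 to 5 per library limit the ratios, except the KI ratio of Arap3 and the WT ratios of Sh2d4b and Ddr2.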
